A study of Mus musculus with 48 samples.

Results

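The glutathione S-transferases (Gst), UDP-glycosyltransferases (Ugt) and cytosolic sulfotransferases (Sult) were followed across 5 tissues and both sexes of the mouse. Members were all probe sets, the groups of array probes that read 1 transcript together, whose single gene symbol in the platform annotation begins with Gst, Ugt or Sult and goes on with a lower case letter or a digit. This rule gave 49 probe sets of 38 genes out of 22626 probe sets and 12393 genes, with 25 probe sets of 18 Gst genes, 12 of 9 Ugt genes and 12 of 11 Sult genes. The rule reads symbols only and uses no measured value, but it was chosen with earlier results of these data known. The Ugt1a enzymes were not members, because their probe sets carried several symbols.

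The study measured liver, kidney and hypothalamus of both sexes, together with testis and ovary, on Affymetrix arrays, to find sex-specific transcription. Each of the 8 groups held 3 RNA samples, numbered 1 to 3 in the titles, and every RNA sample was hybridised to 2 arrays, which were averaged. The RNA was bought, and each sample was a pool of 10 animals. No treatment, strain or age was given. The sample descriptions give polyA-selected RNA for liver, kidney, testis and ovary and total RNA for hypothalamus, while the field for the molecule gives total RNA for every sample. If the descriptions hold, RNA type and hypothalamus cannot be told apart in any comparison of hypothalamus with another tissue.

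All 3 families attach a polar group to small molecules so that these can leave the cell and the body. Glutathione transferases join the tripeptide glutathione to electrophiles, UDP-glycosyltransferases move a sugar, most often glucuronate, from a nucleotide sugar, and sulfotransferases move sulfate from its activated donor PAPS to hydroxyl and amino groups of steroids, bile acids, catecholamines and drugs. Liver is the main site of this chemistry, and kidney, gut, gonads and brain carry their own sets of isoforms.

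Values are intensities on a linear scale, with every array scaled to the same trimmed mean. The 48 arrays had trimmed means between 500.11 and 500.23 as deposited. The small number of arrays, which are pairs of runs of 3 RNA samples a group, limits the precision. Log2 differences are of the scaled intensity plus 48.1 and are given ± the standard error of limma's fit, so they understate the change of dim probe sets. Where the lower side lies near or below 48.1, that constant sets the size of the difference. A gene passed at a limma adjusted p below 0.05, adjusted over all probe sets tested. The labels do not say that the 3 pools of a group came from separate sets of animals, so the spread behind each p-value may be only technical. The sums of hepatocyte, proximal tubule and male germ cell markers followed the labels. The summed intensity of 7 hepatocyte genes was 105202 to 122354 in liver and 488 to 15688 elsewhere, that of 7 proximal tubule genes was 57569 to 70571 in kidney and 741 to 1675 elsewhere, and that of 6 male germ cell genes was 78421 to 100682 in testis. Most of the hepatocyte sum in hypothalamus was the gene Ttr, with means of 13428 in males and 11732 in females. The testis somatic sum was not highest in testis, at 4781 to 9475 there and 8217 to 11019 in ovary. Its gene Star had means of 485 in testis and 5639 in ovary. Liver samples also held exocrine pancreas transcripts, and ovary samples held oviduct and adipocyte transcripts.

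Of the 49 probe sets, 47 were bright enough to test across all 24 RNA samples. Sult2b1 and Sult1c1 were too dim in every group, with highest values of 162 and 118. Most members had 1 leading tissue. A probe set was called highest in a tissue where it passed against each of the 4 other tissues, the gonads being set against the groups of their own sex and against each other. By this rule 38 of 47 members led in 1 tissue, against 56.6% of all probe sets tested. In bulk RNA, fewer cells of a type and less RNA per cell cannot be told apart.

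Liver led for 24 member probe sets (51.1%), where 8.5% of all tested probe sets were highest in liver. Kidney led for 9 (19.1%), with a background of 6.26%. The other organs led for few members, 3 in hypothalamus against a background of 18.5%, 2 in testis against 15.5%, and 0 in ovary against 7.81%. By family, among 25 Gst probe sets 15 led in liver, 2 in kidney and 1 in testis, among 12 Ugt probe sets 5 led in liver, 4 in kidney and 2 in hypothalamus, and the 10 Sult probe sets were spread over liver (4), kidney (3), hypothalamus (1) and testis (1). The smallest of the 4 log2 differences had a median of 2.32 among the members led by liver, where over all probe sets led by liver it was 0.995.

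**Figure D1:**
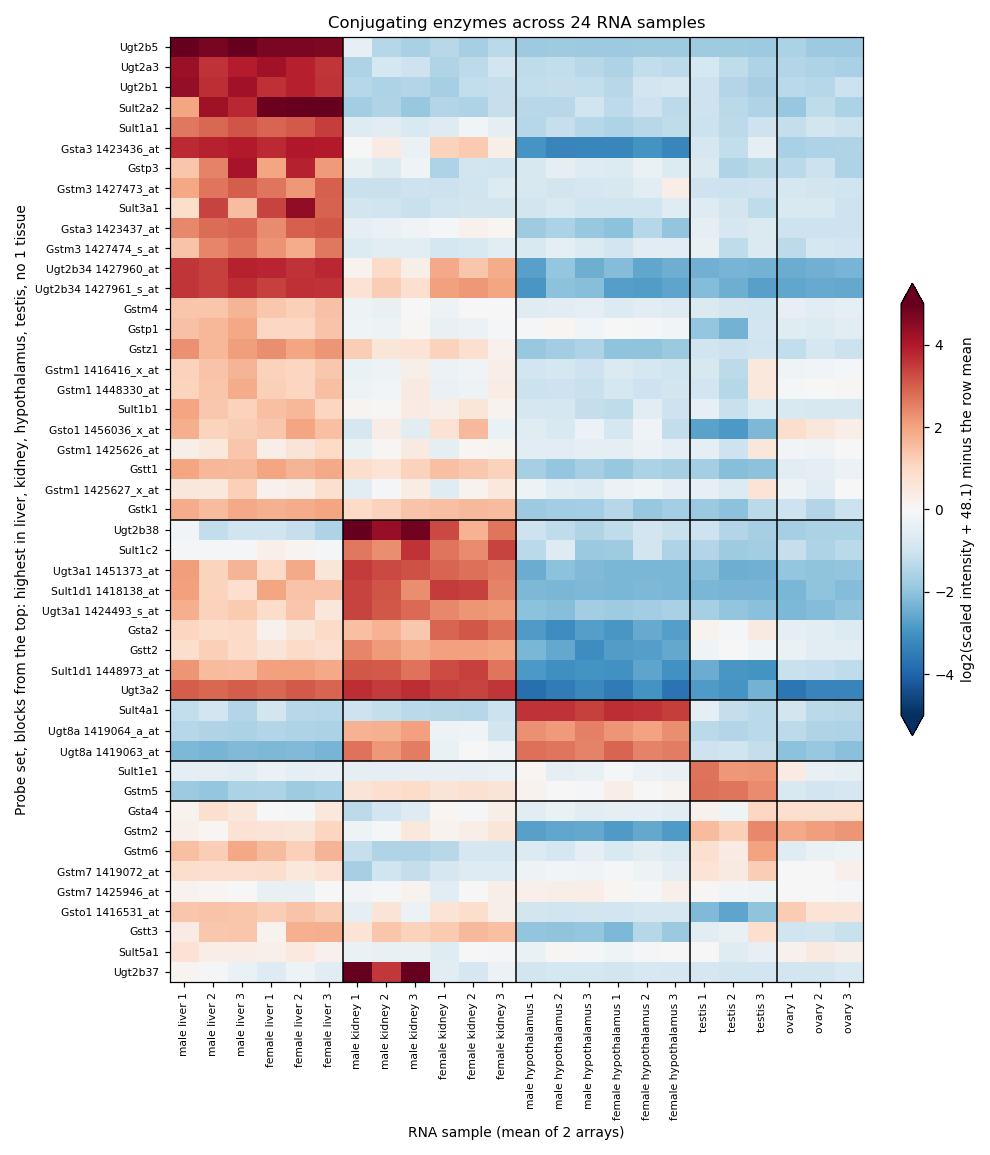
Each row is a member probe set and each column an RNA sample, coloured by log2 of the scaled intensity plus 48.1 minus the row mean, with lines between tissues and between blocks of members. From the top the blocks hold the 24 members led by liver, the 9 led by kidney, 3 by hypothalamus and 2 by testis, then 9 that led in no 1 tissue, among which Ugt2b37 stands out in the 3 male kidney samples.

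By the smallest of the 4 differences, the 3 most liver-specific members were glucuronosyltransferases of the Ugt2 family. Ugt2b5, one of the main hepatic isoforms, ranged over 4337 to 6930.4 (median 4550.2) in the 6 liver samples, over 7 to 84.5 (median 18.1) in kidney and over 1.55 to 10.2 (median 1.8) in ovary. Its smallest difference to another tissue was 6.17 (limma adjusted p = 2.79e-17), and every liver sample lay above every other sample. Ugt2b1 measured 4060.0 to 7037 (median 4656) in liver and 82.4 to 143 (median 98.8) in hypothalamus, the next tissue by its mean. Its smallest log2 difference to another tissue was 5.0 (limma adjusted p at most 5.04e-16 in the 4 contrasts). Ugt2a3 measured 1889 to 3219 (median 2417) in liver and 8.35 to 42 (median 24.5) in kidney, a log2 difference of 5.14 (limma adjusted p = 3.55e-16). Ugt2b34 led in liver through both of its probe sets, with smallest log2 differences of 2.58 and 2.06, the next tissue being kidney.

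Ugt2b38 and Ugt2b37 were kidney enzymes in these samples. Ugt2b38 measured 799 to 10109 (median 3848) in kidney and 39.8 to 186 (median 71.9) in liver. Its smallest log2 difference to another tissue was 4.22 (limma adjusted p at most 1.27e-10 in the 4 contrasts). Ugt2b37 reached 4499, 1082 and 3013 in male kidney and stayed between 2.25 and 58.9 in the 21 other samples. Because its female kidney values were as low as those of the other tissues, it led in no 1 tissue by the rule. The 6 Ugt2 genes lie on chromosome 5 in the order Ugt2b34, Ugt2b1, Ugt2b5, Ugt2b37, Ugt2a3 and Ugt2b38, so that the kidney pair is interleaved with liver isoforms.

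The windows around the transcription starts of Ugt2b5, Ugt2b37 and Ugt2b38 are shown because the 3 genes differ in tissue and sex while these windows are close copies. They are RefSeq sequences of build GRCm38.p6 on the minus strand, from 250 bases before to 50 after the start, at chr5:87140291-87140590, chr5:87254739-87255038 and chr5:87424154-87424453, each spanning the promoter and the first transcribed bases. Capitals mark bases of Ugt2b5 and Ugt2b37 that differ from, or have no partner in, the Ugt2b38 window (39 and 26 bases).
Ugt2b38: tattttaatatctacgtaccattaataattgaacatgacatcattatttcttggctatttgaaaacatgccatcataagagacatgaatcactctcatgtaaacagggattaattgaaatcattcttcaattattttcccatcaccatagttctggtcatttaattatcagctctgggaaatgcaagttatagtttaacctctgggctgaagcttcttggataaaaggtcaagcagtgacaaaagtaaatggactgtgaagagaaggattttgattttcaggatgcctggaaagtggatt
Ugt2b37: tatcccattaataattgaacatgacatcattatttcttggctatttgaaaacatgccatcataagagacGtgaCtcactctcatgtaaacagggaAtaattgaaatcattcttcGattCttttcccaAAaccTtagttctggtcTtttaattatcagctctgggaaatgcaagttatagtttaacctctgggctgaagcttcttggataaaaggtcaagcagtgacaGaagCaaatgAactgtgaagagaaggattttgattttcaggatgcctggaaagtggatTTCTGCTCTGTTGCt
Ugt2b5: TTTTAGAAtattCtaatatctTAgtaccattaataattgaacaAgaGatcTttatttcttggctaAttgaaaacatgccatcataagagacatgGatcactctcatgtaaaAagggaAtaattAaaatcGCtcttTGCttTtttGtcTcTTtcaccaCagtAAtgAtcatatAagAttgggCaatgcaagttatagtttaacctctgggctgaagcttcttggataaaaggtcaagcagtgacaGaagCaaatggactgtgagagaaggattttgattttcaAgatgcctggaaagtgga

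In global alignments 87.3% of columns were identical between the windows of Ugt2b37 and Ugt2b38, 84.2% between Ugt2b38 and Ugt2b5, and 76.5% between Ugt2b37 and Ugt2b5. The 12 other pairs among the 6 Ugt2 windows had 48.6% to 55.3%. So the kidney gene Ugt2b38 and the liver gene Ugt2b5 had windows that were closer to each other than either was to those of Ugt2b1, Ugt2a3 or Ugt2b34. Probe sequences were not used here, so how far probes of such close relatives read each other's transcripts is not known.

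Other Ugt members took sugars other than glucuronate or acted on lipids. Ugt3a1 and Ugt3a2 encode enzymes of a family that uses other sugar donors. Ugt3a1 measured 1859 to 3617 (median 2653) in kidney and 449 to 1327 (median 833) in liver on 1 probe set, with a log2 difference of 1.64, and 1.48 on the other. Ugt3a2 led in kidney by 0.58 (limma adjusted p = 3.84e-04), with liver next at 6432 to 7314 (median 6865). Ugt8a, which adds galactose to ceramide to make the galactolipids of myelin, measured 1861 to 2515 (median 2067) in hypothalamus and 20.5 to 27.4 (median 24.2) in liver. Hypothalamus exceeded kidney, the next tissue, by 1.48 on this probe set and 1.56 on the second. The summed intensity of the 3 measured genes of a glia list of 4 (Mbp, Mog and Gfap) was 16849 to 19814 in hypothalamus and 197 to 348 in the other tissues, and its part in the Ugt8a level was not tested. Kidney had glia sums of 197 to 255.

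Among the glutathione transferases, Gsta3, an alpha-class enzyme of hepatocytes, led in liver on both of its probe sets. The first measured 6799 to 8308 (median 7789) in liver, 371 to 1255 (median 619.6) in kidney and 5.15 to 19.8 (median 6.28) in hypothalamus, with a smallest log2 difference of 3.39 (limma adjusted p = 1.25e-14). Gstm3, of the mu class, measured 412 to 947 (median 722) in liver and 7.80 to 104 elsewhere. Its smallest differences were 3.21 and 2.87 on its 2 probe sets. Gstp3, of the pi class, led by 3.27 (limma adjusted p = 1.51e-07), but its liver values ran from 613 to 4381.

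The other liver-led Gst members were Gstm1 on 4 probe sets, Gstm4, Gstp1, Gstt1, Gstz1, Gstk1 and 1 of 2 probe sets of Gsto1, with smallest log2 differences from 0.45 to 1.55. Gstz1 doubles as the maleylacetoacetate isomerase of tyrosine breakdown and Gstk1 is the organelle form of the family. The call of the Gstm1 probe set with the smallest difference (0.62, limma adjusted p = 0.0499) ended in 19 of the 24 fits that left out 1 RNA sample, and that of a second Gstm1 probe set (0.70) ended in 7. Those of the remaining 2 Gstm1 probe sets, 1.30 and 1.26, held in each of the 24.

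The liver samples carried exocrine pancreas transcripts. The summed intensity of the 6 measured genes of a list of 7 was 7597 to 36668 in liver, 2422 to 4859 in kidney and 578 to 1841 in the remaining tissues. In kidney most of it was the gene Cela1, with means of 2424 in males and 3364 in females. The part of the pancreas transcripts in the liver-led members was not tested.

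Kidney led for Gsta2 and Gstt2 among the glutathione transferases. Gsta2, a second alpha-class enzyme, measured 1751 to 6042 (median 3497) in kidney, 762 to 1426 (median 1291) in liver, 628 to 902 (median 754) in testis and 32.8 to 74.2 (median 52.3) in hypothalamus. Its smallest log2 difference to another tissue was 1.33, with a limma adjusted p of at most 6.06e-07 against each other tissue. Kidney led although the sexes differed within kidney. Gstt2, of the theta class, measured 3439 to 5165 (median 3957) in kidney and 1442 to 2139.8 (median 1759.8) in liver, a log2 difference of 1.18 (limma adjusted p = 1.83e-08).

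Gstm5, a mu-class enzyme, led in testis. It measured 19167, 18271 and 14563 in testis, 4337 to 5257 (median 4589) in kidney, 2626 to 3515 (median 2988) in hypothalamus, 1406 to 1608 (median 1535) in ovary and 706 to 936 (median 810.0) in liver. Every testis sample lay above every other sample, with a smallest log2 difference of 1.81 (limma adjusted p = 4.20e-11), and liver, where most of the family was highest, had the lowest level. The 7 mu-class genes lie together on chromosome 3 in the order Gstm5, Gstm7, Gstm6, Gstm3, Gstm2, Gstm1 and Gstm4. Testis led at 1 end of the row and liver at Gstm3, Gstm1 and Gstm4.

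Gstm2 and Gsta4 had their highest means in ovary but passed against testis only under some settings. Gstm2 measured 4639, 5334 and 5705 in ovary and 3771, 2822 and 6630.3 in testis, and 127 to 168 (median 150.2) in hypothalamus. Gsta4, which conjugates the lipid peroxidation product 4-hydroxynonenal, measured 1688, 1634 and 1712 in ovary, 1076, 782 and 1952 in testis and 891 to 1663 (median 1202) in liver. For both genes the third testis sample was the highest of its group and lay above every ovary sample. Without it ovary led for both, and also after quantile normalization. Ovary samples carried adipocyte transcripts, with a summed intensity of the 2 measured genes of a list of 4 between 9551 and 15216 against 533 to 1990 in testis, and oviduct and surface epithelium transcripts at 12948 to 16609 (4 of 4 genes) against 502 to 957 in testis. Their part in the ovary levels was not tested.

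Probe sets of 1 gene disagreed in pattern for Gstm7 and only in the call for Gsto1. The first Gstm7 probe set was higher in liver, at 871 to 1136 (median 1108), than in kidney, at 155 to 363 (median 292), while the second stayed between 117 and 259 over all 24 samples. Gsto1, an omega-class enzyme that reduces dehydroascorbate, had the same order of tissue means on both probe sets, with liver first and ovary next. It led in liver on 1 probe set (smallest log2 difference 1.01, limma adjusted p = 0.024), a call that ended without female liver 2, ovary 2 or ovary 3. The other did not lead, with 2597 to 4008 (median 2642) in ovary against 3931 to 4490.0 (median 4406) in liver. Without male kidney 2 or without ovary 1 it led in liver too. Gstm6, Gstt3 and Sult5a1 also led in no 1 tissue, with liver and testis, kidney and liver, and liver and ovary as their respective highest pairs.

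The sulfotransferases were divided among 4 tissues. Sult1a1, the broad phenol sulfotransferase, measured 6349.8 to 11525 (median 8318) in liver and 571 to 903 (median 632) in kidney, a log2 difference of 3.56 (limma adjusted p = 7.30e-16). Sult2a2, of the hydroxysteroid and bile acid family, measured 777 to 8425 (median 5125) in liver and 8.20 to 58.3 elsewhere, a smallest difference of 4.63. Sult3a1 and Sult1b1 also led in liver, by 2.89 and 1.17. All 4 liver calls passed with limma adjusted p-values of at most 1.03e-06.

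Kidney led for Sult1c2 and Sult1d1. Sult1c2 measured 1147 to 2890.2 (median 1468) in kidney and 174 to 238 (median 179.8) in liver, a log2 difference of 2.81 (limma adjusted p = 8.24e-11). Sult1d1, which sulfates catecholamines, measured 2814 to 4739.6 (median 3777) in kidney, 1264 to 2049 (median 1707) in liver, 141 to 162 (median 154) in ovary and 5.45 to 23.9 (median 8.1) in hypothalamus on the first probe set, with smallest log2 differences of 1.15 and 1.59 on this and the second probe set. Both genes moved with the sample number in kidney. Sult1c2 was 1449, 1147 and 2890.2 in male and 1488, 1168 and 2439 in female kidney samples 1, 2 and 3, and the second Sult1d1 probe set was 2604, 2159 and 1201 in males and 2814, 2677 and 1360.2 in females. In the third samples of both sexes Sult1c2 was above, and Sult1d1 on both probe sets below, every other kidney sample.

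Sult4a1, the brain sulfotransferase, measured 1723 to 2126 (median 1999) in hypothalamus and 12.6 to 75.4 elsewhere, a smallest log2 difference of 4.56 (limma adjusted p = 2.10e-15). Sult1e1, the estrogen sulfotransferase, measured 441, 285 and 298 in testis and 2.4 to 51.5 elsewhere, with ovary next. The ovary values of 51.5, 9.8 and 7.05 lay near or below the added constant. Sult1b1, Sult1d1 and Sult1e1 are direct neighbours on chromosome 5, and they led in liver, kidney and testis.

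In kidney the sexes differed in both directions, with Ugt2b37 and Ugt8a higher and Gsta2 lower in males. Of 36 member probe sets tested, 3 were higher and 1 lower in male kidney (11.1%), where 0.231% of all 13865 probe sets passed. The sample numbers paired male and female kidney, and with the number as a block 5 were higher and 4 lower (25.0%), against a background of 1.05%. The 3 values of males and females did not overlap for 13 of 36 members (36.1%), against 9.48% of all probe sets. By sign 7 of 9 Ugt probe sets (6 genes) were higher in males, with a median log2 difference of 0.84. Of 22 Gst probe sets (16 genes) 14 were lower, with a median of -0.22. Over all 13865 probe sets 7321 were lower and 6544 higher by sign, with a median of -0.01.

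Ugt2b37 had the largest sex difference of the members tested in kidney. It measured 4499, 1082 and 3013 in male and 19.9, 6.2 and 32.8 in female kidney, and the female values were all below the constant of 48.1 added before taking logs. The log2 difference was 5.24 ± 0.44 (limma adjusted p = 0.00358), and it passed also without each of the 6 samples in turn. Ugt8a followed on both probe sets. The first measured 2236, 1505 and 1966 in males and 226, 295 and 259.6 in females, a 7.3-fold ratio of means and a log2 difference of 2.65 ± 0.18 (limma adjusted p = 0.00136). The second measured 588, 602 and 733 and 111, 120.2 and 53.8, a log2 difference of 2.32 ± 0.22 (limma adjusted p = 0.00489). Male kidney thus had the transcript of the galactolipid enzyme at a level whose range overlapped that of hypothalamus on both probe sets, and female kidney did not. On the second probe set the overlap was only that of male kidney 3 (733) with female hypothalamus 2 (719).

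Ugt2b38, the close relative of Ugt2b37, was high in both sexes but higher in males. It measured 10109, 5215 and 7145 in male and 2481, 799 and 1580.0 in female kidney, a 4.62-fold ratio of means. Its log2 difference of 2.26 ± 0.39 did not pass without the block (limma adjusted p = 0.108) and passed with it (9.98e-04). In both sexes the first sample was the highest and the second the lowest, for Ugt2b38 as for Ugt2b37 in males. Ugt3a1 measured 4611, 3763 and 3118 in males and 2325, 2012 and 1918 in females on the probe set that passed with the block only (log2 difference 0.84 ± 0.18, limma adjusted p = 0.217 without and 0.023 with it).

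Ugt2b34 went the other way. On the probe set that passed with the block it measured 655, 961 and 720.5 in male and 1718, 1902 and 1633 in female kidney, a log2 difference of -1.13 ± 0.17 (limma adjusted p = 0.0552 without and 0.00773 with the block). The groups did not overlap on its second probe set either, with a log2 difference of -1.27 ± 0.24 (limma adjusted p = 0.157 and 0.0681). Within 1 gene cluster, 2 kidney isoforms were therefore higher and 1 liver-led isoform lower by value in male kidney.

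Gsta2 was the glutathione transferase that passed without the block. It measured 1931, 2291 and 1751 in male and 5293, 6042 and 4703 in female kidney and every female value was above every male value. The log2 difference was -1.41 ± 0.16 (limma adjusted p = 0.0121). It did not pass in 4 of the 6 fits without 1 sample, those without male 1, male 3, female 1 or female 2, with limma adjusted p from 0.0203 to 0.0967 over the 6. Gsta4 measured 347, 450.5 and 580.1 in males and 991, 864 and 1130.2 in females, a log2 difference of -1.07 ± 0.20 (limma adjusted p = 0.135 without and 0.0181 with the block). Gsta3 measured 481, 649.7 and 371 and 1116, 1255 and 589.5 on its first probe set, where the groups overlapped, with a log2 difference of -0.88 ± 0.29 (limma adjusted p = 0.743 and 0.0343). All 3 alpha-class genes measured were thus lower by value in male kidney, on 4 of 4 probe sets.

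**Figure D2:**
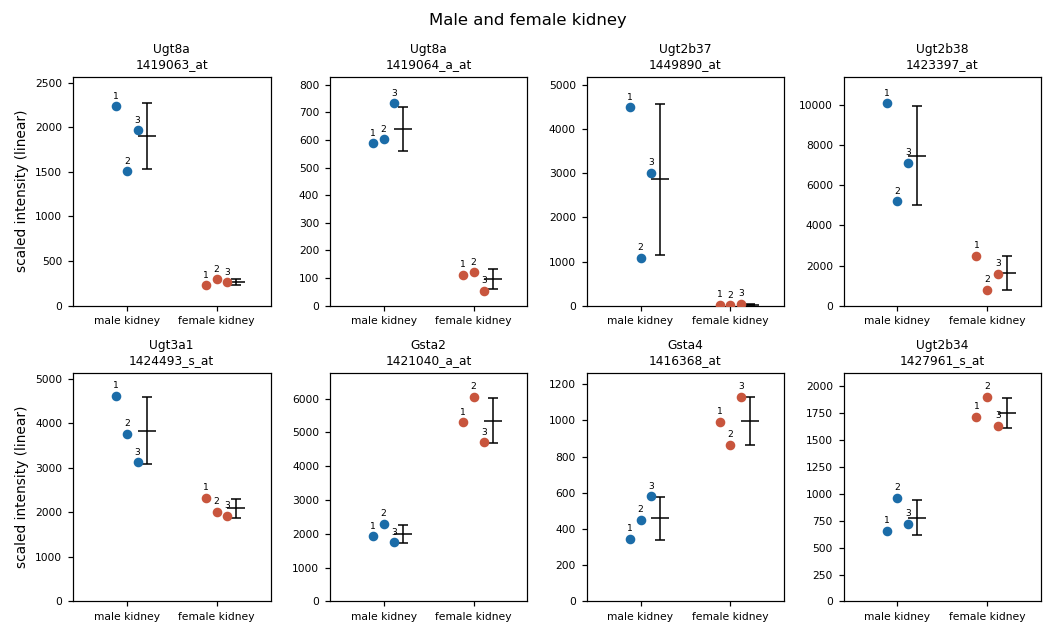
Scaled intensity on a linear axis for 8 member probe sets in the 3 male and 3 female kidney samples, with sample numbers above the points and the mean ± SD as bars. The 5 Ugt8a, Ugt2b37, Ugt2b38 and Ugt3a1 panels have all males above all females, and the Gsta2, Gsta4 and Ugt2b34 panels have all males below all females.

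Within the numbered kidney pairs, the sums of the hepatocyte, proximal tubule, other kidney, male germ cell and exocrine pancreas lists kept 1 sign. The hepatocyte sum was higher in the male of all 3 pairs, at 8513, 4732 and 8664 against 6410, 3829 and 4703. Most of it was the gene Ttr, with means of 5786 in males and 3600 in females. The male germ cell sum, 286 to 328 in males and 315.5 to 395 in females, was higher in the female of all 3 pairs. The proximal tubule sum was 60082 to 70571 in males and 57569 to 68946 in females, ranges that overlapped, and it was higher in the male of all 3 pairs. Its genes did not move together. Slc22a6 had the largest male excess, with means of 5276 in males and 2240 in females. Slc22a8 (4551 and 5711) and Lrp2 (4881 and 5704) were higher in females, and the rest were higher in males by less. The sum of 5 measured genes of 6 from other kidney cells was 19620, 22644 and 21375 in males and 22064, 26215 and 24958 in females, higher in the female of all 3 pairs. The exocrine pancreas sum was also higher in the female of all 3 pairs, at 3073, 2422 and 3236 in males against 4859, 3153 and 4076. Most of that sum was the gene Cela1, with means of 2424 in male and 3364 in female kidney. The other measured genes of the list had means between 38.2 and 228 there. The adipocyte sum was 1983 to 4544 and 2459 to 4587. The immune sum of 5 genes followed the sample number, at 6816, 24106 and 27011 in males and 7670, 20375 and 22771 in females. The part of these markers in the member values was not tested. Kidney samples with the number 3 stood apart from the other 4 in both sexes for 12 of 36 members (33.3%), 9 above and 3 below, as they did for 34.4% of all probe sets tested, a share near that of the members.

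In liver 0 of 41 member probe sets passed limma's test between the sexes, where 0.0506% of all 13847 passed, with or without the block. An unadjusted p below 0.05 was reached by 4 members and 270 of all probe sets. Male and female values did not overlap for 5 members (12.2%), against 6.17% of all probe sets. The largest differences were in sulfotransferases. Sult2a2 measured 777, 3927 and 2808 in male and 6322, 7621 and 8425 in female liver, a log2 difference of -1.83 ± 0.51 (limma adjusted p = 1.00). Every female value was above every male value, but the males themselves differed by several-fold. With all 8 groups in 1 fit, which pools the spread of all tissues, Sult2a2 was the 1 member that passed in liver (limma adjusted p = 0.0156).

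Sult3a1 measured 205, 1374 and 356 in male and 1387, 2931 and 1002 in female liver, a log2 difference of -1.65 ± 0.63 in which the groups overlapped (limma adjusted p = 1.00). Of the 3 members with all males above all females, Gstp1, the pi-class enzyme, measured 13383, 15415 and 18748 and 10135, 10161 and 13156 (log2 difference 0.50 ± 0.17). Ugt2b5 differed by 0.35 ± 0.17 and the second Gstm7 probe set by 0.35 ± 0.15. Sult1c2 was lower in males by value (-0.20 ± 0.13). Gstp3 varied within each sex, with 613, 1378 and 4381 in males and 959, 3688 and 1060.0 in females, and a log2 difference of 0.00 ± 0.72. Exocrine pancreas sums also varied within each sex, at 30690, 7597 and 36668 in males and 31078, 13440 and 13193 in females. The sum of 2 blood genes was higher in every male liver, at 1126, 727 and 1244 against 523, 715 and 680.0. That difference lay in Alas2, with means of 920 in males and 528 in females, while Hba-a1 had means of 112 in both. The immune sum followed the sample number, at 5773, 27647 and 27445 in males and 7587, 25708 and 35754 in females, and male liver 1, the lowest immune sum, also had the lowest Sult2a2. The part of these markers in the member values was not tested.

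**Figure D3:**
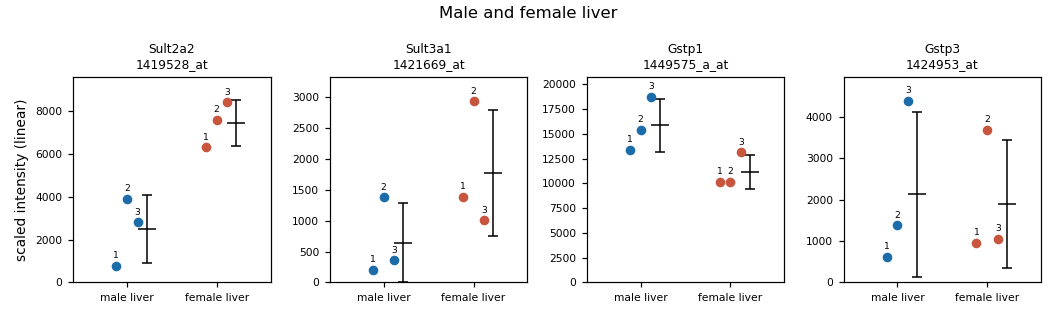
Scaled intensity on a linear axis for Sult2a2, Sult3a1, Gstp1 and Gstp3 in the 3 male and 3 female liver samples, with sample numbers above the points and the mean ± SD as bars. Females lie above males for Sult2a2 and males above females for Gstp1, while Sult3a1 and Gstp3 overlap and spread widely within each sex.

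In hypothalamus 0 of 21 members passed limma's test, against 0.0508% of all 13787 probe sets, with 1 member and 313 of all probe sets at an unadjusted p below 0.05. That member, the second Gstm7 probe set, was also the 1 whose groups did not overlap, where 6.28% of all probe sets did not, and it differed by 0.27 ± 0.11. The members of hypothalamus described above had no sex difference that passed. Ugt8a measured 2271, 2138 and 1883 in males and 2515, 1861 and 1996 in females (log2 difference -0.01 ± 0.13), and Sult4a1 measured 2020.3, 2009.5 and 1723 and 2126, 1989 and 1774 (log2 difference -0.03 ± 0.11).

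Whether the sex difference itself differed between kidney and liver was tested as an interaction over the 18 samples of liver, kidney and hypothalamus. Of 46 members tested 3 passed upwards and 2 downwards, against 0.237% of all 16901 probe sets. The 3 upward calls were Ugt2b37 and both Ugt8a probe sets, which were too dim to test in liver, at 13.9 to 58.9 for Ugt2b37 and 15.6 to 27.4 for Ugt8a. Their interaction therefore restates the kidney difference. Gsta2 differed by -1.80 ± 0.25 (limma adjusted p = 0.00168), being lower in male kidney and higher by value in male liver (0.40). Gsta4 differed by -1.43 ± 0.27 (limma adjusted p = 0.0329), with 0.36 in liver. The Gsta4 call was lost with the first arrays alone (0.337) and without 11 of the 18 samples in turn (male hypothalamus 1 or 3, female hypothalamus 2 or 3, male liver 2 or 3, female liver 1 or 2, male kidney 1, and female kidney 1 or 3), while the other 4 calls held without each of the 18. With the block Ugt2b38, also too dim to test between the sexes in liver, passed as well.

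**Figure D4:**
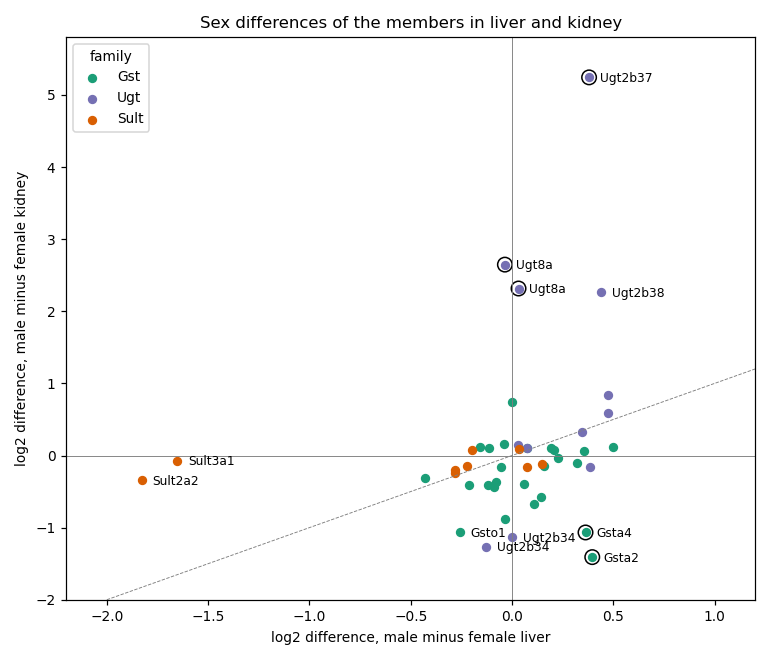
Each point is 1 of the 46 member probe sets tested in the interaction, with its male minus female log2 difference in liver on the x axis and in kidney on the y axis, coloured by family, and a dashed line of equal differences. Open circles mark the 5 that passed the interaction, with Ugt2b37 and Ugt8a above the line and Gsta2 and Gsta4 below it, while Sult2a2 and Sult3a1 lie at the left with kidney differences of -0.34 and -0.07.

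Between testis and ovary 25 members could be tested, 22 Gst and 3 Sult, and 7 were higher and 7 lower in testis (56.0%), where 70.5% of all 14957 probe sets passed. The median log2 difference was -0.07 among the members and -0.35 over all probe sets, a shift that quantile normalization reduced to -0.12. Gstm5 measured 19167, 18271 and 14563 in testis and 1608, 1406 and 1535 in ovary, an 11.4-fold ratio of means and a log2 difference of 3.47 ± 0.16 (limma adjusted p = 1.84e-07). Sult1e1 also passed (limma adjusted p = 1.23e-05), with testis values all above ovary values that were near or below the added constant. Gsto1 went the other way, at 315, 224 and 369.9 in testis and 4008, 2642 and 2597 in ovary, with log2 differences of -3.15 ± 0.23 and -3.18 ± 0.21 on its 2 probe sets (limma adjusted p = 2.09e-06 and 1.32e-06).

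Gstt1 was lower in testis, at 292, 204 and 218 against 692, 755 and 842 in ovary (log2 difference -1.51 ± 0.17, limma adjusted p = 3.71e-05). Its chromosomal neighbour Gstt3 was higher, at 329, 374 and 931 against 222, 234 and 201 (1.01 ± 0.32, limma adjusted p = 0.0171). The other higher calls were those of Gstm6 (1.47 ± 0.35), Gsta2 (0.78 ± 0.17), Gsta3 (0.72 ± 0.20) and the first Gstm7 probe set (0.69 ± 0.22), and the other lower ones those of Gstp1 (-1.14 ± 0.31), Sult5a1 (-0.66 ± 0.19), Gstk1 (-0.56 ± 0.21) and Gstm4 (-0.39 ± 0.15). Those of Sult5a1 and Gstk1 were lost after quantile normalization (limma adjusted p = 0.174 and 0.328), and Gstm4 then had a difference of 0.003. Leaving out 1 sample ended the call of Gstt3 (ovary 3), of Gstm7 (ovary 1 or ovary 2), of Gstk1 (testis 1, testis 2, ovary 1 or ovary 3) and of Gstm4 (every sample but testis 1), with limma adjusted p up to 0.0538, 0.0553, 0.122 and 0.122. No Ugt member passed the filter in the gonads. Without the filter 17 members passed, adding Ugt8a (0.94) and Ugt3a2 (0.715) as higher and 1 Sult1d1 probe set (-1.63) as lower in testis.

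The third testis sample stood apart. For 10 of the 25 members (40%) it was above 1.5 times the higher of the other 2 testis samples, as it was for 11.2% of all probe sets. Gstm1 measured 2077, 1476 and 5888 in testis and 3861, 3947 and 4153 in ovary, and Gstm6 measured 504, 381 and 1235 in testis. The same sample had the highest sum of the 3 measured testis somatic genes of a list of 4, at 9475 against 5268 and 4781, and the lowest male germ cell sum, at 78421 against 100682 and 99712. Cyp17a1 of Leydig cells was 8735 there against 4799 and 4280. The part of these markers in the member values was not tested. Without that sample 18 of 25 members passed, adding Gsta4 (-0.83), Gstm2 (-0.67) and 3 Gstm1 probe sets (-1.17, -0.93 and -0.62) as lower in testis, while Gstm4 no longer passed (limma adjusted p = 0.0586). The values of Gstm6 and Gstt3 fell to 1.00 and 0.58 without it, and the first Gstm7 probe set to 0.47, and Gstm6 then led in liver.

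**Figure D5:**
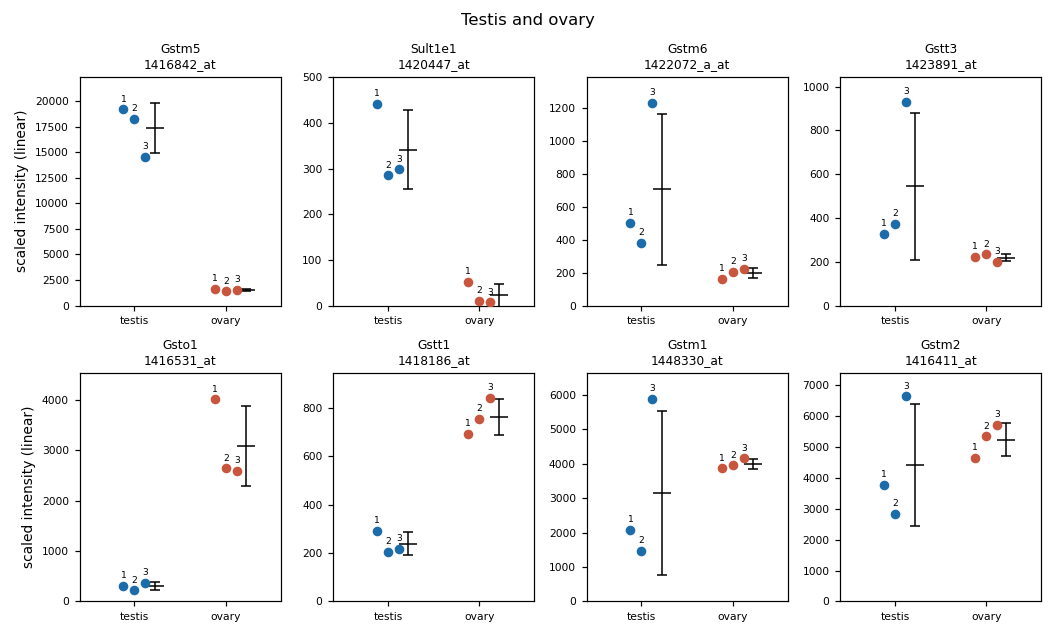
Scaled intensity on a linear axis for 8 member probe sets in the 3 testis and 3 ovary samples, with sample numbers above the points and the mean ± SD as bars. Gstm5 and Sult1e1 are high in all 3 testis samples and Gsto1 and Gstt1 in all 3 ovary samples, while the third testis sample is the highest of its group for Gstm6, Gstt3, Gstm1 and Gstm2.

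The genes that supply and remove the conjugation donors, from lists of related pathways, were led by liver or kidney in part. The shares of all probe sets tested that led were 8.5% in liver, 6.26% in kidney, 18.5% in hypothalamus, 15.5% in testis and 7.81% in ovary, and list counts of 1 or 2 are not set apart from these. Of 12 tested genes of UDP-glucuronate supply and removal 4 led in liver, among them Rgn and Gulo of ascorbate synthesis, and 4 in kidney, among them Miox and Cryl1 of the route through inositol and xylulose. Of 11 tested genes of sulfate donor supply 3 led in kidney, among them the sulfate carrier Slc13a1 and the PAPS phosphatase Bpnt1, 2 in testis (Arsa and Tpst1) and 1 in ovary. Of 12 genes of glutathione supply and use 3 led in kidney, among them Gss and Dpep1, 1 in liver (Gclc, the catalytic subunit of the rate-limiting step), 1 in ovary (Ggt5) and 1 in hypothalamus. Of 20 tested transcription regulators of these enzymes 10 led in liver, with Nr1i3 (the receptor CAR), Nr1h3, Nr1i2 (PXR) and Cebpa at the lowest p, and 2 in hypothalamus.

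Membrane and related glutathione enzymes led in kidney for 3 of 11, among them Mgst3, with Mgst1 in liver, Mgst2 in ovary and Gdap1 in hypothalamus. Other conjugation enzymes led in liver for 5 of 11 and in kidney for 3, with Baat, Inmt and Acsm1 (liver) and Acsm2 (kidney) at the lowest p. Of 6 efflux pumps Abcc6 and Abcc2 led in liver, Abcg2 in kidney and Abcc5 in hypothalamus.

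In the sex comparisons, 0 genes of the 7 lists passed limma's test in liver or hypothalamus. At an unadjusted p below 0.05 there were 2 in liver and 1 in hypothalamus, where 270 of all 13847 and 313 of all 13787 probe sets were. In kidney 2 of 10 other conjugation enzymes were higher in males. Acsm3, an acyl-CoA synthetase of medium-chain acids, measured 4176 against 74.5 as means of males and females (log2 difference 4.84 ± 0.49, limma adjusted p = 0.0063), and Inmt, a methyltransferase of tryptamine, 7425 against 2838 (1.39 ± 0.20, limma adjusted p = 0.0475). Of 5 efflux pumps Abcc3, which exports glucuronides, was lower in males, with means of 84.7 against 429.8 (-1.89 ± 0.18, limma adjusted p = 0.00489). With the block Nat2 and Nr1h4 passed as higher and Baat as lower. The lists for glutathione, UDP-glucuronate and sulfate supply, with 11 genes tested in each, had 0 genes called in kidney, with or without the block. At an unadjusted p below 0.05 they had 3, where 673 of all 13865 probe sets reached that level.

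Between testis and ovary 45.6% of all probe sets were lower and 24.9% higher in testis, 6824 and 3718 probe sets, where quantile normalization gave 5722 and 4686. Of the lists, 9 of 11 tested genes of UDP-glucuronate supply and removal were lower in testis and 0 higher, with a median log2 difference of -1.55. Ugdh, which makes UDP-glucuronate, had means of 228 against 1227 in testis and ovary (-2.22 ± 0.15, limma adjusted p = 1.54e-06). All 9 tested membrane and related glutathione enzymes were lower (median -1.05), among them Mgst1 (-1.31 ± 0.20). Of 9 sulfate donor genes 6 were lower, with Papss2, a synthase of PAPS, at -2.57 ± 0.19, and 2 higher, and of 11 glutathione supply genes 5 were lower and 2 higher. Among transcription regulators 8 of 13 were lower and 2 higher, Nfe2l2, the regulator of the antioxidant response, at -1.89 ± 0.15. In the remaining lists 3 of 5 other conjugation enzymes were lower, and of 4 efflux pumps Abcc5 was lower and Abcc3 higher. Abcc3 had means of 2052 against 246 in testis and ovary (2.84 ± 0.17, limma adjusted p = 6.18e-07).

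RefSeq start windows were found for 33 of the 38 genes, 42 windows in all, and short motifs were counted in them on both strands. TGACNNNGC, the core of the antioxidant response element, was in 3 windows (7.14%), those of Gsta3, Gstm5 and Gstm7, against 12.4% of all 32851 windows. GCGTG, the core of the dioxin response element, was in 11 (26.2%) against 32.4%. The palindromic HNF1 motif and the androgen and glucocorticoid response element, as full consensus strings, were in 0 member windows and in 0.00913% of all windows each. A match is a string of letters in this window and not a site.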

How the data were processed

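RNA of 24 samples was measured on 48 Affymetrix arrays, 2 per sample. The deposited values are 1 intensity per probe set on a linear scale, already scaled by the authors to a common trimmed mean, as the deposited values show. The software that made them is not given in the sources used here. Each array was scaled again to an equal trimmed mean (2% at each end), 48.1 (the 20th percentile) was added, log2 taken and the 2 arrays of a sample averaged. A probe set was tested where it was brighter than the 40th percentile of its array for 3 or more of the RNA samples fitted. Fits used limma 3.58.1 (lmFit and eBayes) in R 4.3.3 with Benjamini-Hochberg adjustment over all probe sets tested, and the scripts were tested on simulated data. The 2-group fits used 6 samples, the tissue fit 24 and the interaction fit 18. Windows were aligned with biopython 1.88. Gene names come from the platform annotation, which names 1 symbol for 20380 probe sets, several for 691 and none for 1555. Where such a probe set reads several close relatives, their signals cannot be separated.

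Same-numbered male and female samples deviated together from their group means, with liver correlations of 0.54, 0.14 and 0.48, kidney correlations of 0.59, 0.42 and 0.63 and hypothalamus correlations of 0.39, 0.10 and 0.33, so the numbers were taken as pairs from the data in these tissues. The alternatives tried were other pseudocounts, quantile normalization, 1 array per sample, no filter, an intensity trend, all groups in 1 fit, the replicate block, a minimum log2 difference and each RNA sample left out.

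The members and the gene lists were chosen with earlier results of these data known. Named members are those that passed in a comparison (between testis and ovary the rule took the 6 largest in each direction, and the seventh was added), up to 3 in each direction whose sexes did not overlap, up to 8 that led in a tissue, and genes whose probe sets differed. From each pathway list up to 4 genes with the lowest p were named, and the remaining genes named in the text were chosen after their values were seen.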

Additional observations from a re-analysis of the deposited data

Results flagged for a closer look

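The sex difference in kidney differed from that in liver for 5 member probe sets of 4 genes, by limma's interaction test. Male minus female in kidney exceeded that in liver by 4.86 on the log2 scale for Ugt2b37, and by 2.68 and 2.28 for the probe sets of Ugt8a. These 3 probe sets were too dim to test in liver, so their values restate the kidney difference. The difference was -1.80 for Gsta2 and -1.43 for Gsta4. The 3 kidney samples of each sex did not overlap for any of these 5 probe sets. Gsta2 and Gsta4 were bright in both tissues. The Gsta4 call was lost with the first arrays alone (-1.22, limma adjusted p = 0.337) and without 11 of the 18 samples in turn.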

How the results depend on the processing

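With the replicate number as a block, 9 members passed between the sexes in kidney where 4 did without it, and all 8 groups in 1 fit also gave 9. The block changed no other comparison of the sexes within a tissue. In the interaction 6 passed with it and 5 without. The numbers were not taken as pairs of testis with ovary. Same-number correlations were low there (0.04, 0.15 and 0.04), although above the highest between different numbers (0.03). Between testis and ovary 13 members passed with the block and 14 without. In liver 1 member, Sult2a2, passed with all 8 groups in 1 fit and 0 under the other settings. The number of members highest in ovary was 0, but 2 (Gsta4 and Gstm2) after quantile normalization, 1 (Gsta4) with the first arrays only and 0 to 2 over the fits without 1 sample. Without male kidney 2 the interaction gave 8 members, and over its 18 fits without 1 sample 4 to 8. Fits without 1 sample gave 3 to 6 members in kidney, 0 in liver and hypothalamus, 11 to 18 between testis and ovary, and 35 to 41 highest in 1 tissue. Gstm4, lower in testis by 0.39, had a difference of 0.003 after quantile normalization. It also did not pass with either array alone. Signal over background limited 2 members in every tissue and all 12 Ugt probe sets in the gonads.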
